A study of Homo sapiens with 6 samples.

Results

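The genes described here are 10 genes of cellular iron uptake, storage and sensing: TFRC, SLC11A2, FTH1, FTL, NCOA4, SLC40A1, IREB2, ACO1, SLC25A37 and SLC25A28. They were chosen by name for their roles in iron handling, with earlier results of these data known. The share of them that changed, set beside that of all genes, is therefore a description and not a test. They were found by Entrez identifier among the 20824 genes listed in the deposited files. All 10 were listed in all 6 libraries and passed the filter on low counts. The cells were A549, a line from a human lung adenocarcinoma. They carried either a scrambled control shRNA, which the labels treat as wild type, or an shRNA against C19orf12. The knockdown titles share the same shRNA name, so a lower C19orf12 level and other effects of that shRNA cannot be told apart. There were 3 libraries in each group, named here by group and replicate number, and all of them were made from RNA captured on oligo-dT beads. No further treatment is labelled, and since the origin of the replicates (separate cultures or not) is unlabelled, p-values speak only to the spread among these libraries, which may be technical. Mutations of C19orf12, which encodes a membrane protein of mitochondria and the endoplasmic reticulum, underlie an inherited brain disease in which iron accumulates, and the comparison asks how the RNA of iron genes differs when C19orf12 is lowered.

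Most cells take up iron bound to transferrin through the transferrin receptor, move it out of the endosome with a divalent metal transporter, store the surplus inside ferritin shells and release it again when the receptor NCOA4 carries ferritin to the lysosome. The iron regulatory proteins, encoded by ACO1 and IREB2, bind iron-responsive elements, short RNA hairpins, when iron is scarce. Binding in the 5′ untranslated region of ferritin mRNA blocks its translation, while binding in the 3′ untranslated region of transferrin receptor mRNA protects that mRNA from decay. Ferritin protein was not measured here, and the values below are RNA levels.

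The iron-responsive elements are shown because they are the feature by which the regulatory proteins tell these mRNAs apart. GENCODE transcripts (GRCh38) of the 10 genes were searched on the sense strand for a C, any 5 bases and CAGTGN with a last base other than G, with 5 base pairs (G with T allowed) between the bulged C and the loop and at least 3 of 5 below the C. Capitals mark the bulged C and the CAGTGN loop, and each element has 27 bases, written 5′ to 3′ as DNA.
FTH1, 5′ untranslated region, chr11:61967575-61967601, minus strand: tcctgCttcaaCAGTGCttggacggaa
FTL, 5′ untranslated region, chr19:48965336-48965362, plus strand: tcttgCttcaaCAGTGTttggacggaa
SLC40A1, 5′ untranslated region, chr2:189580662-189580688, minus strand: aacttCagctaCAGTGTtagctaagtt
TFRC, 3′ untranslated region, chr3:196050980-196051006, minus strand: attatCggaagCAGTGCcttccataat
TFRC, 3′ untranslated region, chr3:196050576-196050602, minus strand: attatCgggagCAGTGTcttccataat
TFRC, 3′ untranslated region, chr3:196050511-196050537, minus strand: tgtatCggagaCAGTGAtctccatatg
TFRC, 3′ untranslated region, chr3:196050464-196050490, minus strand: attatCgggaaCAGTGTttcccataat
Of 19041 genes searched by their longest protein-coding transcript with a RefSeq match, 6 (0.0315%) held such an element in the 5′ untranslated region, and FTH1, FTL and SLC40A1 were among them. A 3′ element was found in 23 of the genes (0.121%), and TFRC, with 4, was among the genes described here. No match was found in these letters in the other 6 genes. A match describes the sequence and does not show that a protein was bound.

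Total estimated counts ran from 10229890 to 10647587 per library, and 18286 to 18582 genes were listed. C19orf12 itself, in CPM (counts scaled to library size by TMM), was at 42.5, 41.1 and 63.3 in the scramble libraries, taken in the order of their numbers here and below, and at 24.2, 26.4 and 25.2 in the knockdown libraries. The groups did not overlap, and the targeted gene fell (log2 fold change -0.95, adjusted p = 0.015 by edgeR's quasi-likelihood test), with adjusted p-values of 0.0755 to 0.0908 when any 1 knockdown library was left out and 3.17e-08 without scramble replicate 3. Scramble replicate 3 stood apart from scramble replicates 1 and 2. Replicates varied by 18.9% (estimated coefficient of variation) over 6 libraries and by 2.97% once it was left out, and its levels shifted with the GC content of transcripts, as described below for the iron genes. Values without it are given beside those of all 6 libraries. Among the cell type markers, the keratins KRT8 and KRT18 were abundant, whereas EPCAM and KRT19 reached at most 2.54 and 2.63 CPM and the alveolar marker SFTPC at most 0.10 CPM. The summed level of the 5 epithelial markers was 3337 to 4530 CPM in the scramble and 9983 to 10172 CPM in the knockdown libraries, and its part in the results below was not tested. The 4 fibroblast markers summed to 37.9 to 46.4 CPM in the scramble and 23.5 to 25.7 CPM in the knockdown libraries, nearly all of it COL1A1, with COL1A2 at 0.10 CPM or less. Erythroid markers, which would carry their own iron programme, summed to at most 0.292 CPM in the scramble and 0.585 CPM in the knockdown libraries, with HBA1 listed in no file.

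The transferrin receptor gene was higher in the knockdown cells, and the genes of the ferritin heavy chain and of the mitochondrial iron importer SLC25A37 were lower. By edgeR's quasi-likelihood test 3 of the 10 genes changed, TFRC upward and FTH1 and SLC25A37 downward, where 11.5% of the 14812 genes tested changed, 5.89% upward and 5.64% downward. In bulk RNA such differences cannot be told apart into fewer cells with the RNA and less RNA per cell. The median log2 fold change of the 10 genes was 0.10, against 0.02 over all genes tested. The groups did not overlap for 8 of the 10 genes, 4 with knockdown above scramble and 4 below, where 37% of all genes tested did not overlap. Without scramble replicate 3, 7 of the 10 genes changed, 4 upward and 3 downward, against a background of 49.5% of 15029 genes, 25.7% upward and 23.8% downward. With a correction of each library for GC content and length, 6 changed, 3 upward and 3 downward, against 34.1% of 14231 genes. Without knockdown replicate 2 or knockdown replicate 3 only FTH1 of the 10 genes was called, where 4.93% and 4.85% of all genes tested were called.

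**Figure D1:**
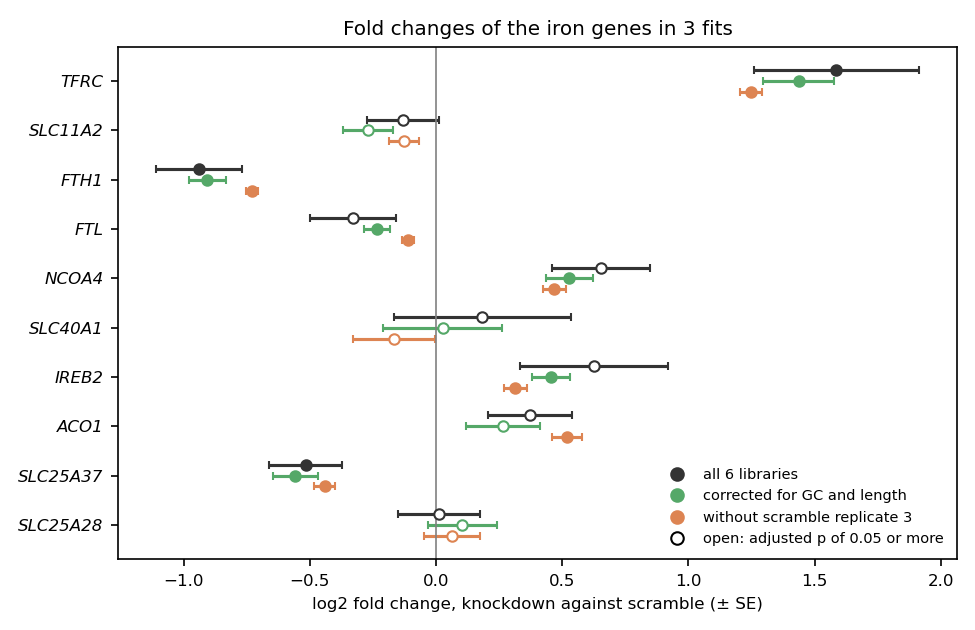
Log2 fold change of each iron gene, knockdown against scramble, on the horizontal axis, with whiskers of 1 SE, from 3 fits by edgeR: all 6 libraries, all 6 with a correction for GC content and length, and without scramble replicate 3. Filled points have an adjusted p under 0.05. TFRC lies at 1.25 to 1.59 and FTH1 at -0.94 to -0.73. SLC40A1 lies at -0.16 to 0.18 and SLC25A28 at 0.01 to 0.10, with open points in all 3 fits.

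TFRC (Entrez gene 7037, chromosome 3), the receptor that brings transferrin-bound iron into the cell, was at 103, 103 and 38.3 CPM in the scramble libraries and at 240, 248 and 248 CPM in the knockdown libraries. Every knockdown library lay above every scramble library, and scramble replicate 3 was the lowest. The mean rose from 81.7 ± 37.6 to 245 ± 4.51 CPM (SD, n = 3 each), a log2 fold change of 1.59 (SE 0.33, adjusted p = 0.0136 by edgeR). Set against scramble replicates 1 and 2 alone, the knockdown level was 237% of theirs (log2 fold change 1.25, adjusted p = 2.66e-16), and with the correction for GC content and length the log2 fold change was 1.44 (adjusted p = 0.000126). The call with all 6 libraries was narrowly lost on leaving out knockdown replicate 2, with a log2 fold change of 1.57 and an adjusted p of 0.0519, or replicate 3 of that group, with 1.58 and 0.0515.

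SLC11A2 (gene 4891, chromosome 12) encodes DMT1, the transporter that moves ferrous iron out of endosomes. It measured 56.9, 59.0 and 58.4 CPM in the scramble libraries and 54.1, 53.8 and 51.5 CPM in the knockdown libraries, so the groups did not overlap but lay close together. The log2 fold change of -0.13 (SE 0.14, adjusted p = 0.64 by edgeR) did not pass the test, nor did the value without scramble replicate 3 (-0.13, adjusted p = 0.0921). This gene has 9 transcripts in the authors' annotation. Their abundance-weighted mean length was 3892, 3885 and 3480 bases in the scramble and 3932, 3912 and 3915 bases in the knockdown libraries. The low value was that of scramble replicate 3, and the remaining 5 libraries spanned 3885 to 3932 bases.

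FTH1 (gene 2495, chromosome 11), the ferritin heavy chain, which carries the ferroxidase site that oxidises iron for storage, fell in the knockdown cells. The scramble libraries had 4661, 4627 and 6822 CPM and the knockdown libraries 2756, 2812 and 2834 CPM. All 3 scramble libraries were above all 3 knockdown libraries, with scramble replicate 3 the highest. The mean went from 5370 ± 1258 to 2801 ± 40.1 CPM (SD, n = 3 each), a log2 fold change of -0.94 (SE 0.17, adjusted p = 0.00714 by edgeR). The knockdown level was 52.2% of the scramble mean, or 60.3% of the mean of scramble replicates 1 and 2 (log2 fold change -0.73, adjusted p = 5.45e-17). FTH1 passed the test in each of the 14 alternative settings. Ranked by FPKM (level per length of transcript, scaled for depth), FTH1 was gene 3 in every scramble library and gene 14 or 15 in the knockdown libraries.

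FTL (gene 2512, chromosome 19), the ferritin light chain, which helps the iron core to form, measured 3835, 3880 and 5759 CPM in the scramble and 3519, 3606 and 3603 CPM in the knockdown libraries. The groups did not overlap, but scramble replicates 1 and 2 lay close above the knockdown libraries and scramble replicate 3 far above them. The log2 fold change of -0.33 (SE 0.17) had an adjusted p of 0.275 by edgeR. It was smaller without scramble replicate 3, -0.11, and passed against the small remaining spread (adjusted p = 0.000486). With the correction for GC content and length it was -0.23 (adjusted p = 0.00919). FTL was gene 2 by FPKM in all 6 libraries.

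The ferritin heavy chain thus differed between the groups by more than the light chain, and this can be read within each library, where scaling between libraries plays no part. The FPKM of FTH1 was 85.7%, 84.1% and 83.6% of that of FTL in the scramble libraries and between 55.02% and 55.5% in the 3 knockdown libraries. Scramble replicate 3 lay with the other scramble libraries in this ratio. The log2 ratio went from -0.24 ± 0.019 to -0.86 ± 0.0062 (SD, n = 3 each), a difference of -0.61, with an exact permutation p of 0.10 (2-sided), which is the smallest that 3 against 3 libraries allow, and 0.133 after adjustment over 4 ratios. The difference was -0.62 without scramble replicate 3. Together the 2 ferritin genes held 0.885%, 0.892% and 1.22% of all counts in the scramble libraries and 0.613%, 0.627% and 0.632% in the knockdown libraries. Reads of ferritin pseudogenes can be confused with those of the genes. In the files FTLP10 had at most 17.5 and FTH1P3 at most 3.03 estimated counts in a library, and other copies carrying an FTH1P, FTLP, FTHL or FTMT symbol were not listed. An unlisted copy may be at 0 or absent from the authors' annotation, and these cannot be told apart here.

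NCOA4 (gene 8031, chromosome 10), the receptor that delivers ferritin to autophagosomes for breakdown, was at 127, 119 and 78.6 CPM in the scramble and at 168, 170 and 173 CPM in the knockdown libraries. The knockdown libraries lay above all scramble libraries, and scramble replicate 3 was again apart, here on the low side. The log2 fold change of 0.65 (SE 0.19) had an adjusted p of 0.0617 by edgeR and did not pass. It passed without scramble replicate 3 (0.47, adjusted p = 1.42e-08), with the correction for GC content and length (0.53, adjusted p = 0.0031) and by DESeq2 (0.65, adjusted p = 0.0317).

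SLC40A1 (gene 30061, chromosome 2) encodes ferroportin, the iron exporter, and was the least abundant of the 10 genes. It measured 7.90, 8.73 and 2.91 CPM in the scramble libraries, from 85, 94 and 30 estimated counts, and 7.90, 6.09 and 8.24 CPM in the knockdown libraries, from 79, 61 and 83. The groups overlapped. They differed by 0.18 on the log2 scale (SE 0.35, adjusted p = 0.80 by edgeR) with all 6 libraries and turned to -0.16 (SE 0.16, adjusted p = 0.428) without scramble replicate 3. No difference was detectable at this depth and spread.

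**Figure D2:**
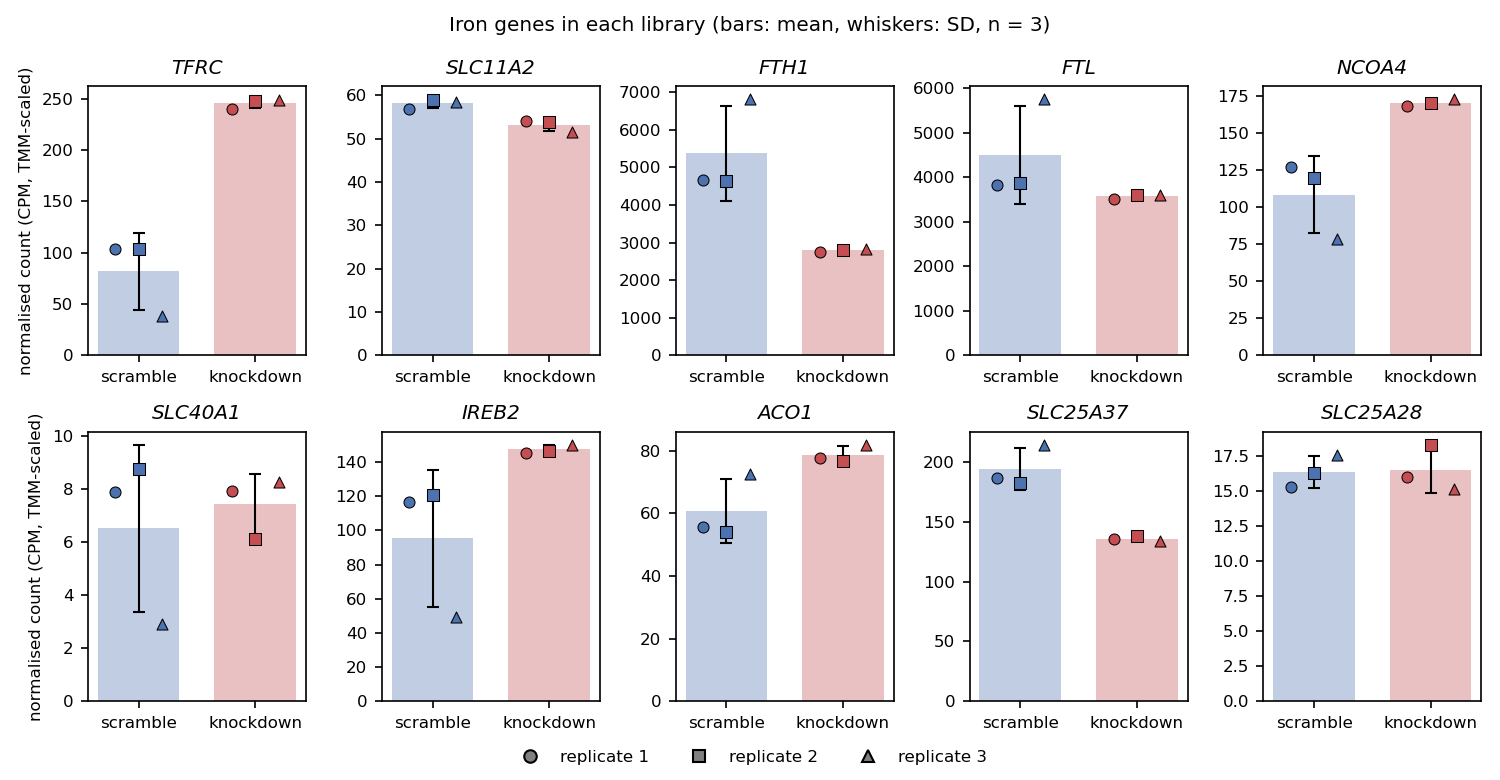
CPM of the 10 iron genes, 1 panel per gene with its own axis from 0, scramble in blue and knockdown in red. Points are libraries with the replicate number by shape, bars are means and whiskers SDs of 3 libraries. Scramble replicate 3 (triangle) is the lowest library for TFRC, NCOA4, SLC40A1 and IREB2 and the highest for FTH1 and FTL, while the 3 knockdown libraries lie closer together than the scramble libraries for each of these 6 genes.

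The iron regulatory proteins had higher values in the knockdown libraries that did not pass with all 6 libraries. IREB2 (gene 3658, chromosome 15), which encodes IRP2, the protein that is degraded when iron is ample, measured 116, 121 and 49.3 CPM in the scramble and 145, 147 and 150 CPM in the knockdown libraries. The groups did not overlap, and scramble replicate 3 was far below the other 5 libraries. It differed by 0.63 on the log2 scale (SE 0.29, adjusted p = 0.222 by edgeR), by 0.31 without scramble replicate 3 (adjusted p = 4.92e-06) and by 0.45 with the correction for GC content and length (adjusted p = 0.00215).

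ACO1 (gene 48, chromosome 9) encodes IRP1, which is a cytosolic aconitase when it holds an iron-sulfur cluster. It was at 55.6, 54.1 and 72.4 CPM in the scramble and 77.6, 76.6 and 81.8 CPM in the knockdown libraries. The groups did not overlap, and here scramble replicate 3 was the scramble library nearest to the knockdown libraries. It differed by 0.37 on the log2 scale (SE 0.17, adjusted p = 0.20 by edgeR), by 0.52 without scramble replicate 3 (adjusted p = 1.45e-07) and by 0.26 with the correction (adjusted p = 0.205). The FPKM of IREB2 was 117%, 124% and 37.9% of that of ACO1 in the scramble and 104%, 107% and 102% in the knockdown libraries. The difference of the log2 ratio was 0.35 (exact permutation p = 1, 2-sided, n = 3 each) and -0.21 without scramble replicate 3, so its direction rested on that library.

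The mitochondrial iron importers, or mitoferrins, did not have like values. SLC25A37 (gene 51312, chromosome 8), mitoferrin 1, measured 187, 182 and 215 CPM in the scramble libraries and 136, 138 and 134 CPM in the knockdown libraries, with no overlap between the groups. It fell from 195 ± 17.5 to 136 ± 1.95 CPM (SD, n = 3 each; log2 fold change -0.52, SE 0.14, adjusted p = 0.047 by edgeR). This call was close to the threshold. It was lost without any 1 library other than scramble replicate 3, with adjusted p-values of 0.0823 to 0.239, and with no filter on low counts (0.0688), while the log2 fold change stayed between -0.57 and -0.44 in these leave-one-out fits. It passed without scramble replicate 3 (-0.44, adjusted p = 1.2e-08), as it did with the correction for GC content and length (-0.56, adjusted p = 0.00176).

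SLC25A28 (gene 81894, chromosome 10), mitoferrin 2, the form found in most tissues, measured 15.2, 16.2 and 17.5 CPM in the scramble and 16.0, 18.3 and 15.1 CPM in the knockdown libraries, and the groups overlapped. The groups differed by 0.01 on the log2 scale (SE 0.16, adjusted p = 0.975 by edgeR), and by 0.06 (adjusted p = 0.671) without scramble replicate 3. The FPKM of SLC25A37 was 3.61, 3.30 and 3.60 times that of SLC25A28 in the scramble libraries and 2.52, 2.23 and 2.62 times in the knockdown libraries. The groups did not overlap in this ratio, and scramble replicate 3 lay with the other scramble libraries. The log2 ratio differed by -0.51, or -0.49 without scramble replicate 3 (exact permutation p = 0.10, 2-sided, the smallest for 3 against 3 libraries, and 0.133 after adjustment over the 4 ratios).

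The ratio of transferrin receptor to ferritin heavy chain joined the 2 largest changes among the 10 genes. The FPKM of TFRC was 0.53%, 0.535% and 0.134% of that of FTH1 in the scramble and 2.08%, 2.10% and 2.09% in the knockdown libraries. The knockdown libraries lay close together, and scramble replicate 3 lay far below the other scramble libraries. The log2 ratio rose by 2.64 (6.23-fold) with all libraries and by 1.98 (3.93-fold) without scramble replicate 3, with an exact permutation p of 0.10 (2-sided, n = 3 each), the smallest possible, and 0.133 after adjustment over the 4 ratios. Without scramble replicate 3 the smallest exact p that 2 against 3 libraries allow is 0.20, and all 4 ratios were at that value.

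**Figure D3:**
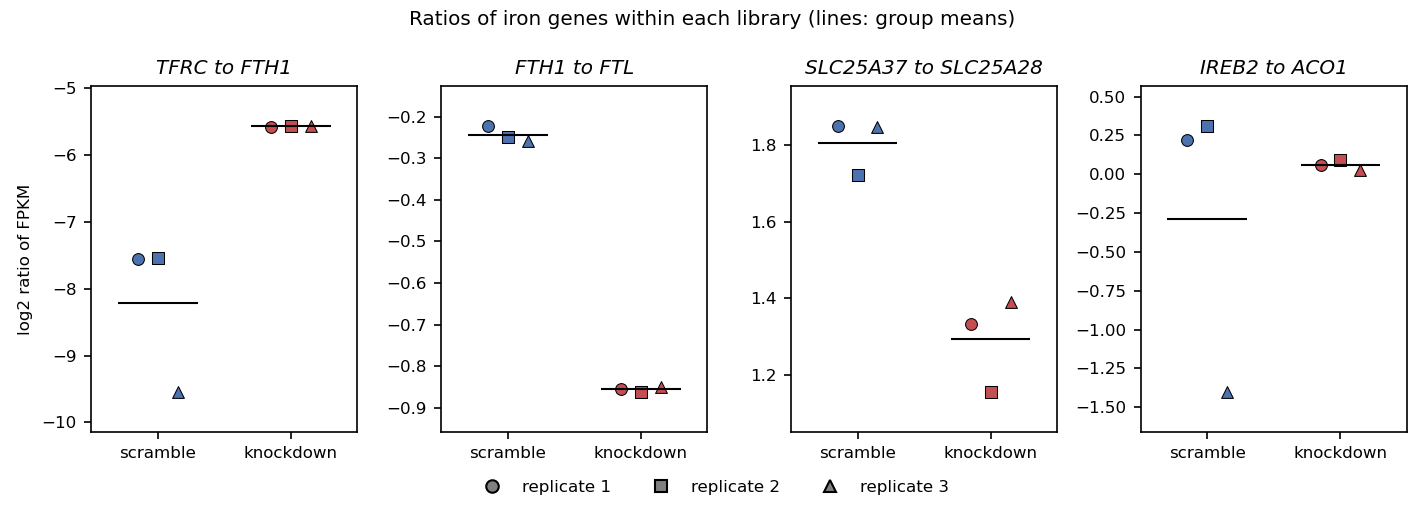
Log2 ratio of the FPKM values of 2 genes within each library, for 4 pairs, with scramble in blue, knockdown in red, the replicate number by shape and lines at the group means. For FTH1 to FTL and SLC25A37 to SLC25A28 scramble replicate 3 lies with the other scramble libraries, for TFRC to FTH1 and IREB2 to ACO1 it lies at -9.54 and -1.40, far below them.

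Compared per length, the genes of iron storage stood far above the others. In the scramble libraries FTL had 5242 ± 1028 and FTH1 4423 ± 822 FPKM (SD, n = 3 each here and below). These overlapped between libraries, although FTL was the higher in each library. Next came SLC25A37 at 37.0 ± 1.66 and NCOA4 at 31.1 ± 8.55 FPKM, then ACO1 at 17.2 ± 2.08, TFRC at 16.4 ± 7.98, SLC11A2 at 15.7 ± 0.526 and IREB2 at 15.3 ± 6.84 FPKM. SLC25A37 and NCOA4 overlapped between libraries, and so did the following 4 genes. SLC25A28 followed at 10.6 ± 0.416 and SLC40A1 at 1.98 ± 1.01 FPKM. The order of the middle genes rested on scramble replicate 3, in which TFRC (7.20 FPKM) and IREB2 (7.41 FPKM) lay below SLC25A28 (10.8 FPKM). In the mean of scramble replicates 1 and 2 TFRC was at 21.0, IREB2 at 19.2, ACO1 at 16.0 and SLC11A2 at 15.5 FPKM.

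In the knockdown libraries the order below ferritin differed. After FTL at 4033 ± 60.0 and FTH1 at 2229 ± 35.6 FPKM came TFRC and NCOA4, which did not differ beyond their spread, at 46.7 ± 0.922 and 46.7 ± 0.769 FPKM. SLC25A37 was at 24.98 ± 0.291, IREB2 at 22.4 ± 0.421 and ACO1 at 21.5 ± 0.813 FPKM, and IREB2 and ACO1 overlapped. SLC11A2 at 13.2 ± 0.315, SLC25A28 at 10.2 ± 0.999 and SLC40A1 at 2.13 ± 0.337 FPKM closed the order. TFRC thus stood below SLC25A37 and NCOA4 in every scramble library and beside NCOA4, directly below ferritin, in the knockdown libraries.

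Several of these values moved with scramble replicate 3, and the iron genes spanned much of the range of GC content along which that library was shifted. The genes tested were put into 10 bins by GC content, and that library was set against the mean of the other scramble libraries. The median difference over all genes was -1.03 (log2) in the bin lowest in GC and 0.51 in the highest bin. IREB2 (38.3% GC), TFRC (41.4%) and SLC40A1 (42.4%) differed by -1.26, -1.43 and -1.45, beyond the medians of their bins, which were -1.03, -0.89 and -0.64. NCOA4 (45.2%) differed by -0.65 and SLC11A2 (45.8%) by 0.01, where the median of their bin was -0.26. ACO1 (46.8%) was at 0.40, where its bin had a median of 0.05. FTH1 (50.1%) and FTL (56.3%) differed by 0.55 and 0.58, where the medians were 0.32 and 0.49. SLC25A37 (50.1%) and SLC25A28 (58.1%) were at 0.22 and 0.15, below the medians of 0.32 and 0.49. The difference of TFRC lay lower than that of all but 5.06% of the genes in its bin, and that of SLC40A1 lower than all but 2.46%.

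**Figure D4:**
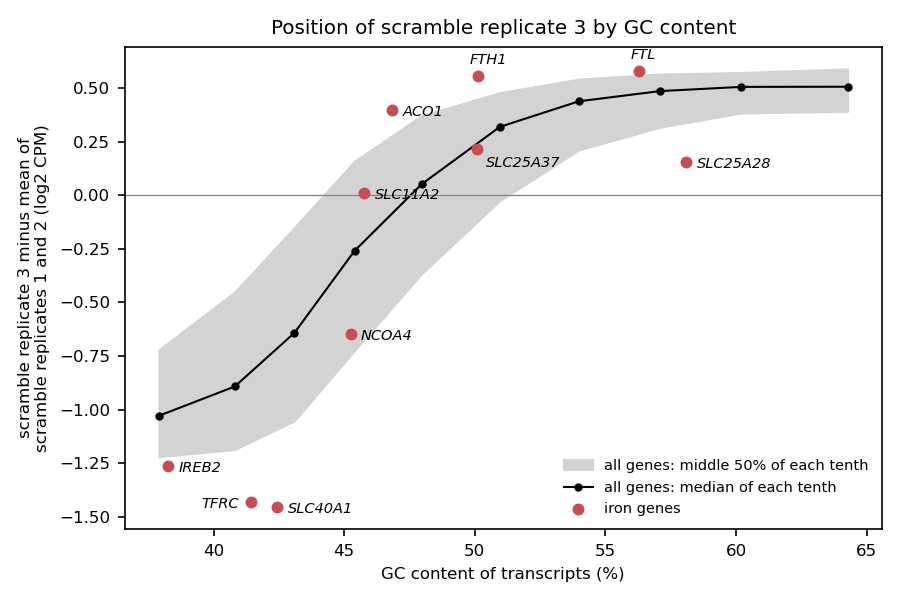
Level in scramble replicate 3 minus the mean of the other scramble libraries (log2 CPM, vertical axis) against the GC content of transcripts in percent. The line and band are the median and the middle 50% of all genes tested, in 10 bins by GC content, and red points are the 10 iron genes. TFRC, SLC40A1 and IREB2 lie at -1.43, -1.45 and -1.26, and FTH1 and FTL at 0.55 and 0.58.

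Other genes of iron handling were read from lists of transferrin cycle, export, iron regulatory protein turnover, iron-sulfur cluster, haem and further iron-responsive mRNAs. Across these lists, without counting a gene more than once, 5 of 73 tested genes rose and 2 fell, against the background of 5.89% and 5.64%, and the median log2 fold change was -0.01, against 0.02 over all genes. Without scramble replicate 3, 31 of 74 rose and 18 fell, against 25.7% and 23.8%. The 10 genes above were left out of all these lists.

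In the list of haem synthesis, breakdown and transport, 3 of 20 tested genes rose and 0 fell. Of all genes tested, 5.89% rose and 5.64% fell. FLVCR1, a transporter first described as a haem exporter, was at 38.0, 40.5 and 20.3 CPM in the scramble and 118, 120 and 115 CPM in the knockdown libraries, and rose by 1.84 on the log2 scale (SE 0.25, adjusted p = 0.0016 by edgeR). Its log2 fold change was 1.59 (adjusted p = 8.42e-16) without scramble replicate 3. Its relative FLVCR2 rose from 9.78 ± 3.29 to 23.5 ± 1.97 CPM (SD, n = 3 each; log2 fold change 1.26, adjusted p = 0.00825), and by 1.57 without that library. CPOX, an enzyme of haem synthesis, rose by 0.62 (adjusted p = 0.0263), and by 0.59 without scramble replicate 3, but the call was lost without any 1 of the other libraries. HMOX1, which degrades haem and releases its iron, was at -0.11 (adjusted p = 0.781) and BLVRB, a biliverdin reductase, at -0.50 (adjusted p = 0.135). Both passed when scramble replicate 3 was left out, HMOX1 with the opposite sign (0.11, adjusted p = 0.0418) and BLVRB at a smaller size (-0.26, adjusted p = 5.06e-06). In this list 11 genes rose and 4 fell without scramble replicate 3, where 25.7% of all genes rose and 23.8% fell. With DESeq2, 4 rose and 1 fell, where 1889 genes were called in all, against 1708 by edgeR.

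In the transferrin cycle and import list 1 of 10 tested genes rose and 1 fell. MCOLN1, a cation channel of lysosomes that passes iron, rose from 4.55 ± 0.826 to 8.64 ± 1.27 CPM (log2 fold change 0.92, adjusted p = 0.0215 by edgeR). STEAP1, of a family of metalloreductases, fell from 24.0 ± 3.95 to 14.9 ± 0.614 CPM (log2 fold change -0.69, adjusted p = 0.0355). The MCOLN1 call was lost without scramble replicate 1, knockdown replicate 1 or knockdown replicate 3 (adjusted p = 0.0786, 0.111 and 0.106), and the STEAP1 call without any 1 library other than scramble replicate 3 (adjusted p = 0.0876 to 0.18). Leaving out scramble replicate 3, MCOLN1 was at 0.88 and STEAP1 at -0.81 and both passed. The zinc and iron importer SLC39A14 was at -0.34 (adjusted p = 0.15) and the ferric reductase CYBRD1 at -0.01 (adjusted p = 0.993). These passed with scramble replicate 3 left out, at -0.28 (adjusted p = 8.43e-07) and -0.27 (adjusted p = 0.000195). Transferrin itself, TF, did not pass the filter, at no more than 0.0999 CPM in any library. Of this list 2 genes rose and 4 fell without scramble replicate 3. Over all genes 49.5% were called in that fit, against 11.5% with all 6 libraries.

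Of the export and hepcidin list only 3 of 8 genes were tested, and ERFE, which encodes the hormone erythroferrone, fell from 16.1 ± 2.12 to 7.88 ± 0.482 CPM (-1.03 on the log2 scale, SE 0.17, adjusted p = 0.0051 by edgeR). It passed in every setting run, at -0.92 without scramble replicate 3. The ferroxidase gene CP was at -0.10 (adjusted p = 0.861) and BMP6, which induces hepcidin, at 0.18 (adjusted p = 0.565). With scramble replicate 3 left out, CP was at -0.39 (adjusted p = 4.36e-06) and BMP6 at 0.29 (adjusted p = 0.000791). In that fit 1 gene of 4 tested rose and 2 fell, where 49.5% of all genes were called. With all 6 libraries that share was 11.5%. The hepcidin gene HAMP and the ferroxidase gene HEPH were listed in no file.

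The list of iron regulatory protein turnover, iron chaperones and ferritin handling had 0 of 9 genes called by edgeR and 0 by DESeq2, with 2 at an unadjusted p under 0.05 by either tool. The iron chaperones PCBP1 and PCBP2 were at 0.03 (adjusted p = 0.934) and -0.22 (adjusted p = 0.45), and at 0.21 (adjusted p = 8.43e-05) and -0.05 (adjusted p = 0.178) without scramble replicate 3. FBXL5, the iron-sensing subunit of the ligase that targets the iron regulatory proteins, is on this list and was named for that role after the values were seen. It measured 64.4, 57.5 and 31.8 CPM in the scramble libraries and 49.4 CPM on average in the knockdown libraries (log2 fold change -0.05, adjusted p = 0.928, and -0.30, adjusted p = 0.000459, without scramble replicate 3). Without that library 5 genes of the list rose and 2 fell. Of all genes, 49.5% were called in that fit and 11.5% with all 6 libraries.

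Iron-sulfur cluster genes draw on the iron that mitoferrins import. Of 27 tested, 1 rose and 0 fell, where 11.5% of all genes were called, with a median log2 fold change of 0.01 against 0.02 over all genes. The gene that rose was FDX1, a mitochondrial ferredoxin, from 19.2 ± 2.28 to 34.0 ± 2.19 CPM (log2 fold change 0.83, adjusted p = 0.0114 by edgeR), a call lost with the correction for GC content and length (0.58, adjusted p = 0.0785), without scramble replicate 2 (adjusted p = 0.054) and without any 1 knockdown library (adjusted p = 0.0557 to 0.0822). The chaperone HSPA9 was at -0.01 (adjusted p = 0.977) and CIAO1 at -0.03 (adjusted p = 0.943). Leaving out scramble replicate 3, 12 genes of the 27 rose and 4 fell, against 49.5% of all genes called, with FDX1 at 0.93 (adjusted p = 9.74e-09), HSPA9 at -0.19 (adjusted p = 2.67e-05) and CIAO1 at 0.09 (adjusted p = 0.15). With the correction for GC content and length 4 rose and 3 fell, against 34.1% of all genes.

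Of the other mRNAs with a known iron-responsive element 4 were tested and 0 were called by edgeR or by DESeq2. Over all genes tested, edgeR called 11.5%. An unadjusted p under 0.05 was seen for 0 of the 4. EPAS1, which encodes the hypoxia factor HIF-2α, was at -0.25 (adjusted p = 0.326), and at -0.12 (adjusted p = 0.00126) without scramble replicate 3. In that fit 2 of the 4 fell and 0 rose, where 23.8% of all genes fell and 25.7% rose.

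Targets of the oxidant-response factor NRF2 were read beside ferritin because FTH1 and FTL are known NRF2 targets and A549 cells carry a KEAP1 mutation that keeps NRF2 active. Of 17 tested 0 rose and 2 fell, where 5.89% of all genes rose and 5.64% fell. The median log2 fold change was -0.31, against 0.02 over all genes. ABCC3, a multidrug resistance transporter, fell from 1736 ± 362 to 947 ± 19.4 CPM (log2 fold change -0.87, adjusted p = 0.0087 by edgeR), and SRXN1, sulfiredoxin, from 1269 ± 274 to 808 ± 17.3 CPM (log2 fold change -0.65, adjusted p = 0.0354). AKR1B10, an aldo-keto reductase, was at 0.07 (adjusted p = 0.822) and AKR1C2 at -0.36 (adjusted p = 0.0983), where reads of AKR1C2 can be confused with those of its close relatives. Without scramble replicate 3, 4 of the 17 rose and 11 fell, where 25.7% of all genes rose and 23.8% fell. The median was then -0.21, against 0.003 over all genes. In that fit ABCC3 was at -0.69, SRXN1 at -0.46, AKR1B10 at 0.23 (adjusted p = 7.21e-08) and AKR1C2 at -0.30 (adjusted p = 2.78e-09). Without any 1 knockdown library edgeR called 0 of the 17. Over all genes it then called 766, 742 and 729 without knockdown replicate 1, 2 or 3. The last 2 counts were 4.93% and 4.85% of the genes tested. In each of these fits 3 of the 17 had an unadjusted p under 0.05, a count not set against all genes. ABCC3 had adjusted p-values of 0.0522 to 0.0617 by edgeR in them and SRXN1 of 0.148 to 0.163. The median gene of this list lay 0.49 higher in scramble replicate 3 than in the mean of scramble replicates 1 and 2 on the log2 scale, and the part of that shift in the list's values was not tested.

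**Figure D5:**
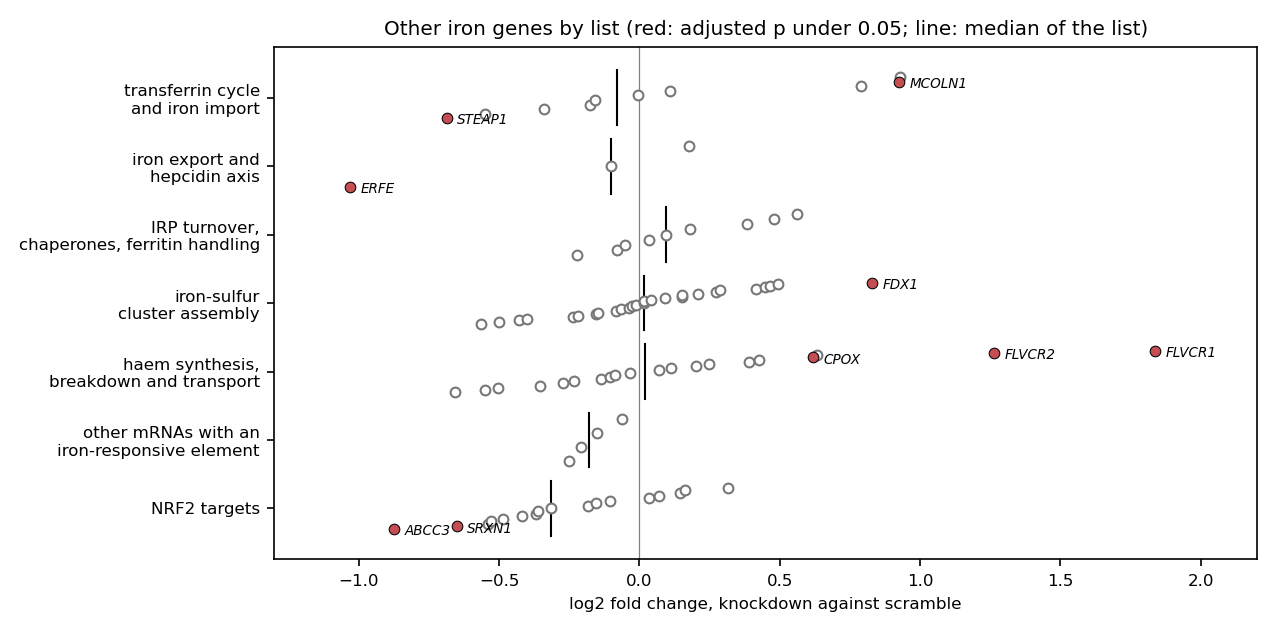
Log2 fold change, knockdown against scramble, of each tested gene in 7 lists of iron handling and NRF2 targets, from the fit with all 6 libraries. Red points have an adjusted p under 0.05 and are named, open points do not, and the vertical lines are the medians of the lists. FLVCR1 (1.84) and FLVCR2 (1.26) lie furthest to the right and ERFE (-1.03) furthest to the left.

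The genes most like FTH1 and TFRC in their pattern over the 6 libraries were sought among 8213 genes whose mean level reached 20 CPM, by the root mean square difference of log2 CPM after centring each gene on its own mean. Nearest to FTH1 were TRNP1 (0.0276), the targeted gene C19orf12 (0.0337) and CDC42EP1 (0.0354). Their log2 fold changes were -0.91, -0.95 and -0.90, beside -0.94 for FTH1. Nearest to TFRC were CCDC68 (0.0676), the sulfate transporter gene SLC26A2 (0.0735) and the desmoplakin gene DSP (0.0882), with log2 fold changes of 1.62, 1.68 and 1.48 beside 1.59 for TFRC. The choice by pattern fixed these values, so they were not tested. These genes share the position of scramble replicate 3 with FTH1 or TFRC as well as the difference between the groups, and the likeness is a description of these 6 libraries.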

How the data were processed

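Oligo-dT selected RNA of 3 scramble and 3 knockdown libraries was analysed from per-gene files. Per the file headers these hold RSEM expected counts (estimated counts, not always whole), FPKM values scaled by the authors for length and depth, and a gene length, another deposited value that gives the mean transcript length in bases. The submitters' processing notes name RSEM, Bowtie2, BWA and the build hg19; roles and versions: not given in the sources used here. Genes at 0 are not listed, so a missing gene was counted as 0. Of the 20824 Entrez identifiers 20727 were matched to RefSeq symbols (GRCh38.p14, names and chromosomes only), and the 97 unmatched held 0.147% of counts.

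Expected counts were rounded and tested with edgeR 4.0.16 (R 4.3.3): filterByExpr (minimum count 10, minimum total 15), TMM, glmQLFit and glmQLFTest, no covariate, Benjamini-Hochberg adjustment over all genes tested, threshold 0.05. SE is the log2 fold change divided by the square root of its F statistic. Ratios of FPKM were compared by exact permutation tests (scipy 1.17.1). GC content came from GENCODE v29 transcripts matched by RefSeq accession, and iron-responsive elements from the same transcripts, with GRCh38 positions. Alternatives were RLE and upper-quartile scaling, no filter, at least 1 CPM in 3 libraries, DESeq2 1.42.0, leaving out each library, a replicate block, limma-voom (limma 3.58.1) and offsets from a spline with 5 degrees of freedom on GC content and length. The test was checked on simulated counts. These did not carry the shift of scramble replicate 3 with GC content, so the check does not cover that shift. Figures used matplotlib 3.10.9.

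The 10 genes, the lists and the tests were chosen with earlier results of these data known. Named are the 10 genes, C19orf12, the called genes of each list (at most 3, by p-value) and its most abundant uncalled genes (at most 2), and the 3 genes nearest in pattern to FTH1 and to TFRC. TF, HAMP, HEPH and FBXL5 are named outside this rule, chosen after their values were seen, and 1 gene that the rule names is not reported here. Replicates differed by more than counting noise (chi-square per degree of freedom at least 1.58), so none was treated as a duplicate.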

Additional observations from a re-analysis of the deposited data

How the results depend on the processing

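Of 140 recomputed log2 fold changes of the 10 genes over 14 alternatives, 118 kept their direction and their side of the threshold, 8 newly passed, 9 no longer passed and 5 changed sign. With the correction for GC content and length, FTL (-0.23), IREB2 (0.45) and NCOA4 (0.53) newly passed, as NCOA4 did by DESeq2 (0.65). SLC25A37 no longer passed with no filter on low counts (-0.51, adjusted p = 0.0688). Same-numbered libraries did not deviate together (correlations of -0.0239, -0.0181 and -0.0232), so the numbers are not known to pair them; with the replicate block 1654 genes were called against 1708, and SLC25A37 had a log2 fold change of -0.51 (adjusted p = 0.133), CYBRD1 0.061 and HSPA9 0.015, the last 2 with a changed sign, while STEAP1 (adjusted p = 0.0546) and CPOX (adjusted p = 0.077) no longer passed. Upper-quartile scaling changed the sign of SLC25A28 (-0.025) and PCBP1 (-0.0050), limma-voom that of CYBRD1 (0.066) and HSPA9 (0.015), and the correction for GC content and length that of CIAO1 (0.031) and HMOX1 (0.012); none of these passed the test in either fit. The cause was not tested.

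With the correction for GC content and length 4858 of 14231 genes tested were called (34.1%), and 6 of the 10 genes. Of the genes tested, 5 of 10 were called in the transferrin list, 3 of 3 in the export list and 3 of 9 in the iron regulatory protein list. In the iron-sulfur list 7 of 27 were called, in the haem list 12 of 20, of the other iron-responsive mRNAs 1 of 4 and of NRF2 targets 9 of 17. DESeq2 called 5 of 20 in the haem list and 1889 genes in all. Counts with 1 library left out ran from 729 to 7439 over all genes, or 4.85% to 49.5% of those tested. They ran from 1 to 7 of the 10 genes, 0 to 6 in the transferrin list and 1 to 3 in the export list. The iron regulatory protein list had 0 to 7, the iron-sulfur list 0 to 16 and the haem list 2 to 15. The other iron-responsive mRNAs had 0 to 2 and the NRF2 targets 0 to 15. In each case the highest count was the one without scramble replicate 3. Without knockdown replicate 1, 2 or 3 the counts over all genes were 766, 742 and 729, with 2, 1 and 1 of the 10 genes.

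Leave-one-out log2 fold changes ran from 1.25 to 1.78 for TFRC, -1.04 to -0.73 for FTH1, -0.44 to -0.11 for FTL, 0.31 to 0.82 for IREB2, 0.29 to 0.52 for ACO1, -0.16 to 0.44 for SLC40A1, -0.57 to -0.44 for SLC25A37, -0.076 to 0.071 for SLC25A28 and 0.47 to 0.77 for NCOA4. Among genes uncalled with all 6 libraries and with a changed sign they ran from -0.27 to 0.16 for CYBRD1, -0.39 to 0.10 for CP, -0.068 to 0.21 for PCBP1, -0.19 to 0.093 for HSPA9, -0.105 to 0.088 for CIAO1, -0.22 to 0.11 for HMOX1 and -0.031 to 0.23 for AKR1B10. Without scramble replicate 3 all of these except CIAO1 passed the test. The log2 ratio of IREB2 to ACO1 ran from -0.21 to 0.65, and that of FTH1 to FTL from -0.62 to -0.60. Depth limits SLC40A1, with 30 to 94 counts, most among the 10 genes.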
